A study of Rattus norvegicus with 8 samples.

Results

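The genes described here encode cell adhesion molecules of neurons and glia: cadherins, protocadherins, contactins, the contactin-associated protein Cntnap1, members of the L1, NCAM and IgLON families, the nectin-like protein Cadm1, neurexins, neuroligins and latrophilins. They were chosen by name alone, as the genes whose single symbol in the array annotation begins with one of these family names, with Nlgn1 left out. The choice took in 82 of the 7830 genes with a symbol of their own, and 78 of the 82 had at least 1 probe set bright enough to be counted as measured. The 4 not measured were Pcdha1, Pcdha2, Pcdha4 and Pcdhga12.

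The spinal cords came from virgin female rats of the Lewis strain, all 16 weeks old, and 1 exon array was hybridised per rat. Experimental autoimmune encephalomyelitis (EAE), a T cell driven inflammation of the central nervous system, had been induced in rats 217, 218, 219 and 241 with 50 µg of myelin basic protein from guinea pig brain. The protein was emulsified in Freund's incomplete adjuvant to which M. butyricum had been added at 4.0 mg/ml, and it was given under the skin at the tail base. Rats 193, 194, 195 and 196 were littermates of the same age that received nothing, so that a difference between the groups contains the effects of antigen, adjuvant and disease together. Cords were taken on day 13, when disease peaked.

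Cadherins bind the same or a similar cadherin on the neighbouring cell in the presence of calcium, and catenins tie them to the actin cytoskeleton. Contactins, the L1 family, NCAM and the IgLON proteins are immunoglobulin-domain proteins that steer axon growth. Some contactins and L1 family proteins also hold axon and myelin together at and beside the node of Ranvier. Neurexins on the presynaptic side bind neuroligins and latrophilins across the synapse. The clustered protocadherins are made from 3 neighbouring arrays of genes, alpha, beta and gamma, from which each neuron uses a small set of promoters and so gains a surface identity of its own.

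A probe set covers an exon or part of one, and its deposited value is a log2 intensity. A gene's value on an array is the mean over its measured probe sets, and differences are EAE minus control on the log2 scale. With 4 arrays per group, the number of arrays limits the precision. Array means were nearly equal, while the SD of the values ran from 2.11 to 2.26 and was lowest on control 195 and next lowest on EAE 218. These arrays also had the highest medians over olfactory receptor probe sets (3.77 and 3.49), which stand for background here because those receptors serve smell in the nose. The 95th percentile of the mean values of the olfactory receptor genes was 4.70 in EAE and 4.77 in control cords, and a gene at or under that limit is called at background below. It was taken over all probe sets of 1048 olfactory receptor genes, dim ones included, whereas adhesion gene values average measured probe sets only. The limit is therefore low for the adhesion genes, and a gene above it may still be close to background.

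Of the 78 measured adhesion genes, 31 fell and 1 rose in EAE cords (limma, adjusted p under 0.05 over all 6961 genes tested). The share that fell was 39.7%, where 17.4% of all tested genes fell and 13.7% rose. The mean was lower in EAE in 68 of the 78 genes and higher in 10, and the median difference was -0.38, against -0.11 over all tested genes. Most tested genes leaned the same way, with a lower mean in 4309 of the 6961 and a higher mean in 2652. Every EAE array lay below every control array in 30 of them, an arrangement found in 19.2% of all tested genes. The opposite arrangement was found in 1 adhesion gene and in 14.1% of all tested genes. Of the 64 genes above background in both groups, 27 fell and 0 rose with limma. The 1 adhesion gene that rose, Cdh17, is not among the 64 because its control mean was at background. Among all tested genes 5393 were above background in both groups. How many of those fell was not counted, so the 27 of 64 have no like share beside them. Of 404 tested olfactory receptor genes 24 fell (5.94%), with a median difference of -0.05. RNA was taken from whole cord, so fewer cells of a type and less RNA per cell cannot be told apart in any of these values.

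**Figure D1:**
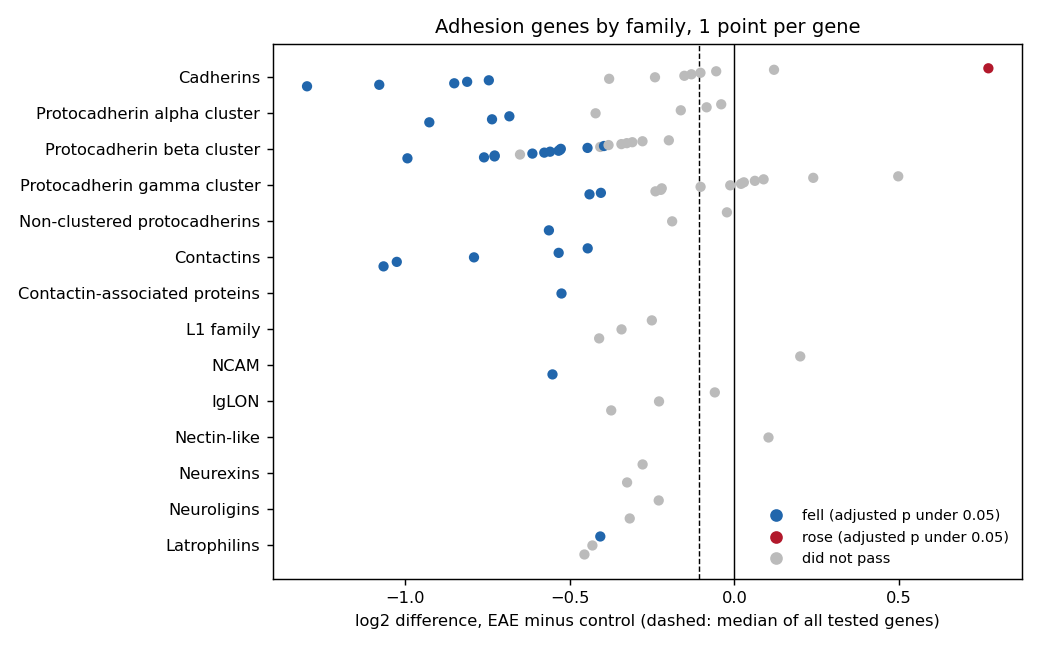
Log2 difference, EAE minus control, for each of the 78 measured genes (x axis) by family (rows), blue where the gene fell, red where it rose and grey where it did not pass (limma, adjusted p under 0.05). The contactins and beta protocadherins lie wholly left of 0, the gamma protocadherins spread to both sides of it, and the dashed line marks the median of all tested genes at -0.11.

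The classical cadherins of type II, which sort neurons into groups and mark particular synaptic partners, held the largest falls. Cdh19, known in the rat embryo from the precursors of Schwann cells, measured 5.78, 5.20, 5.87 and 5.50 in EAE rats 217, 218, 219 and 241, against 6.85, 6.52, 7.21 and 6.96 in control rats 193, 194, 195 and 196. The lowest control array thus stood above the highest EAE array. The difference was -1.30 ± 0.18 (SE), or 2.46-fold lower, with an adjusted p of 0.00053 in limma. All 13 of its probe sets were lower in EAE, with differences from -1.83 to -0.86, and 12 of them fell, 1 of which had passed the filter on the control arrays alone. The Schwann cell list held Prx, with a difference of -0.21 (adjusted p 0.368 with limma), and Egr2, which rose by 0.77. The control mean of Egr2, 4.47, was at background. Whether nerve root tissue has a part in the Cdh19 values was not tested.

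Cdh7 and Cdh20 are type II cadherins as well. Their RefSeq promoters lie on the same rat chromosome as that of Cdh19, at chr13:27197332-27197631 for Cdh7 and chr13:21515017-21515316 for Cdh20 on the + strand and chr13:28533704-28534003 for Cdh19 on the - strand (GRCr8). Cdh7 measured 6.33, 5.81, 6.55 and 6.11 in the EAE cords, in the order of rats given above, and 7.24, 7.32, 6.92 and 7.64 in the controls. It fell by 1.08 ± 0.19 (SE, limma adjusted p 0.00196) with no overlap between the groups, and its 12 measured probe sets were all lower in EAE. Cdh20 averaged 6.96 ± 0.22 in EAE and 7.71 ± 0.21 in control cords (SD, n = 4 each) and fell by 0.75 ± 0.15 (SE, limma adjusted p 0.0036). All 3 of these cadherins fell, each without overlap between the groups. Among all tested genes 17.4% fell, and 19.2% had every EAE array below every control array. The 3 were set side by side after their values were seen. Whether their place on the chromosome has a part in this was not tested.

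Cdh6 and Cdh8, type II cadherins of developing brain circuits, fell too. Cdh6 measured 6.64, 6.13, 6.55 and 6.43 in EAE cords, against 7.40, 7.35, 6.98 and 7.43 in control cords, a difference of -0.85 ± 0.14 (SE, limma adjusted p 0.00165). Cdh8 measured 6.64, 6.12, 6.55 and 6.51 in EAE cords and 7.45, 7.31, 6.84 and 7.47 in control cords, a difference of -0.81 ± 0.17 (limma adjusted p 0.00515). In both genes the lowest EAE value came from rat 218 and the lowest control value from rat 195, and the groups stayed apart. Cdh22, a type II cadherin of pituitary and brain in the rat, also had its EAE arrays (4.85 to 5.22) below its control arrays (5.26 to 5.72), but its difference of -0.38 had a limma adjusted p of 0.0545 and a 95% interval from -0.68 to -0.08.

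The other cadherins showed no fall past the threshold. N-cadherin (Cdh2), the classical cadherin of neural tissue, averaged 7.98 ± 0.14 in EAE and 7.86 ± 0.47 in control cords (SD, n = 4 each), with a 95% interval of the difference from -0.35 to 0.59 and a limma adjusted p of 0.702. Control 195 had its lowest value, 7.24, and the control arrays spanned the EAE range of 7.87 to 8.17. T-cadherin (Cdh13), which lacks a cytoplasmic tail, differed by -0.06 (95% interval -0.46 to 0.35), E-cadherin (Cdh1) of epithelia by -0.10 (-0.51 to 0.30), the muscle cadherin Cdh15 by -0.24 (-0.51 to 0.03), the kidney cadherin Cdh16 by -0.15 (-0.40 to 0.10) and the hair cell tip link protein Cdh23 by -0.13 (-0.37 to 0.11). The symbol Cdh1 is also an older name of Fzr1, and which of the pair its probe sets read was not tested. Cdh15 lay at background in both groups.

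Cdh17 was the 1 adhesion gene that rose. It encodes the liver-intestine cadherin, which lacks the catenin-binding tail of the classical cadherins. Its values were 4.78, 5.16, 4.56 and 5.07 in EAE cords, while the control cords ran from 3.89 to 4.42, a difference of 0.77 ± 0.16 (SE, limma adjusted p 0.00515). Every EAE array was above every control array, but the control mean of 4.12 was at background and 7 of its 13 measured probe sets were at background in both groups. With only probe sets above the 50th percentile of all values the difference was 0.17 (limma adjusted p 0.542). Of the 13, 2 passed the filter on the EAE arrays alone and had to differ, and with the filter on the mean over all 8 arrays the difference was 0.65 (limma adjusted p 0.014). The call was lost without EAE 217 (0.55, adjusted p 0.0517 with limma), without EAE 218 (0.39, adjusted p 0.0885), without EAE 241 (0.50, adjusted p 0.0819) and without EAE 218 and control 195 together (0.27, adjusted p 0.142).

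Among the contactins all 5 measured genes fell, with a median difference of -0.79, where 17.4% of all tested genes fell. Contactins are anchored to the membrane by a lipid and act with transmembrane partners on the same or the opposite cell. Cntn6, a contactin known from the developing cerebellum in rodents, measured 5.71, 5.32, 5.71 and 5.67 in EAE cords and 6.55, 6.58, 6.52 and 7.03 in control cords. The groups were apart by more than their own spread, with EAE 218 lowest and control 196 highest, and the difference was -1.06 ± 0.15 (SE, 2.09-fold lower, limma adjusted p 0.000437). Its 24 measured probe sets were all lower in EAE, and 17 of them fell.

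Cntn4, which guides axons of olfactory and visual neurons in mice, measured 5.80, 5.40, 5.89 and 5.94 in EAE cords, against 6.87, 6.77, 6.40 and 7.10 in control cords. It fell by 1.02 ± 0.17 (SE, 2.03-fold lower, limma adjusted p 0.00143), and its 28 probe sets were all lower in EAE, with differences from -1.57 to -0.55. Cntn3 averaged 5.23 ± 0.21 in EAE and 6.02 ± 0.25 in control cords (SD, n = 4 each), a difference of -0.79 ± 0.15 (limma adjusted p 0.00344). In both genes no EAE array reached the lowest control array, which was control 195. The RefSeq promoters of these 3 contactins lie on rat chromosome 4 (GRCr8), at chr4:136681862-136682161 for Cntn3, chr4:138911317-138911616 for Cntn6 and chr4:140180571-140180870 for Cntn4.

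The contactins of the node of Ranvier had smaller differences. Cntn2, which joins axon and myelin in the juxtaparanode, averaged 5.74 ± 0.10 in EAE and 6.19 ± 0.17 in control cords (SD, n = 4 each), a difference of -0.45 ± 0.11 (SE, limma adjusted p 0.0146) with no overlap. Cntn1, the axonal contactin of the paranode, measured 9.93, 9.55, 9.99 and 10.03 in EAE cords and 10.59, 10.50, 9.93 and 10.63 in control cords. Control 195 overlapped with the EAE arrays, the difference was -0.53 ± 0.17 (limma adjusted p 0.042), and the call was lost when any 1 array other than control 195 was left out. Cntnap1, which pairs with Cntn1 on the axon at the paranode, measured 5.45, 5.44, 5.43 and 5.56 in EAE cords and 6.25, 5.91, 5.84 and 5.98 in control cords. Its EAE arrays were close together and all below the controls, and it fell by 0.53 ± 0.11 (limma adjusted p 0.00555). With the median in place of the mean of its 25 probe sets the difference was -0.34 and did not pass (limma adjusted p 0.193).

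**Figure D2:**
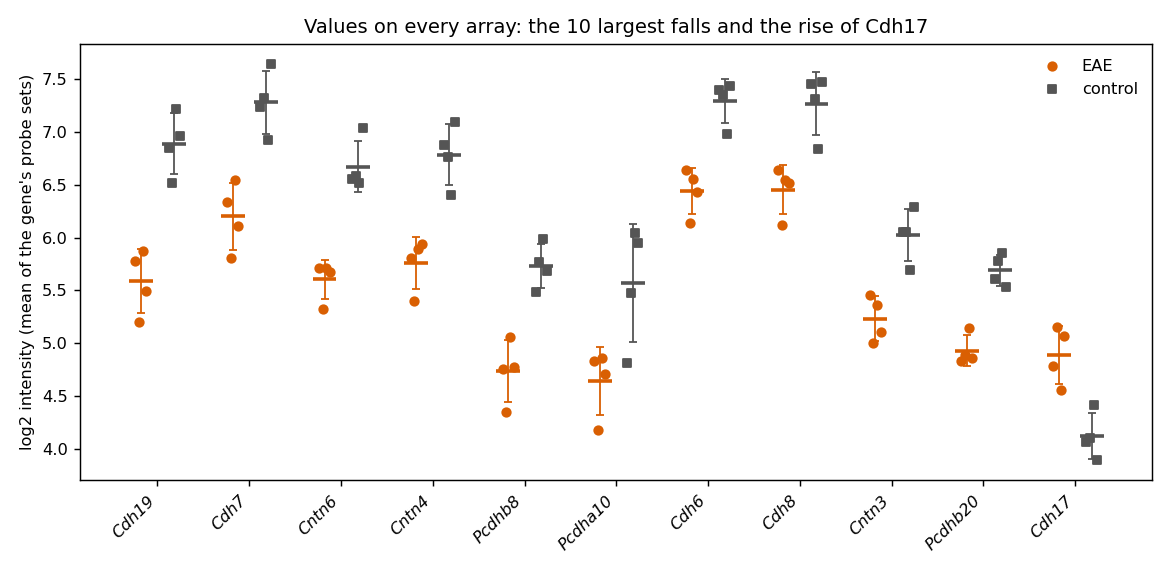
Log2 intensity on each array (y axis) for the 10 genes with the largest falls and for Cdh17, with EAE arrays as orange circles and control arrays as grey squares, a bar at the mean and whiskers of 1 SD. The groups are apart in every gene except Pcdha10, where control 193 lies within the EAE range, and Cdh17 is the gene in which the EAE arrays are the higher ones.

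The clustered protocadherins made up 44 of the 82 genes. Of 40 that were measured 17 fell and 0 rose with limma, namely 3 of 7 alpha genes, 12 of 20 beta genes and 2 of 13 gamma genes. These were 42.9%, 60% and 15.4% of the measured genes in each cluster, where 17.4% of all tested genes fell. The share in the gamma cluster was thus not above that of all tested genes. In the beta cluster all 20 genes had a lower mean in EAE, with differences from -0.99 to -0.20 and a median of -0.53, and that was so under every alternative processing and with each array left out, where 15 of the genes were measured in the strictest filter and 20 in the others. The number of beta genes that fell was 6 when the median of a gene's probe sets was used and 9 to 16 under the other alternatives. Many of these genes rest on few probe sets, are related in sequence and lie at or not far above background. The EAE mean was at background in 7 of the 20, among them 2 with both means there. The symbol Pcdhb14 is also an older name of Pcdhb20, and Pcdhb2 one of Pcdhb12, and all 4 are counted as separate falls. Whether a probe set also reads RNA from a neighbouring copy was not tested.

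Beta protocadherins are each a single exon with a promoter of its own, so the RefSeq promoters (250 bases before to 50 after the start of the gene) are shown for those whose sequences carry a shared word. The most frequent 10-base word on the gene strand of the beta promoters was GGTGGCGCTG, picked after viewing them. Searched on both strands, it stood in 14 of the 16 beta genes with 1 RefSeq promoter, always on the gene strand and 36 to 219 bases before the start. It stood in 0 of 12 gamma promoters and in 0 of the 20 promoters of the other adhesion genes, out of 48 genes with 1 promoter in all. Among all 33469 RefSeq rat promoters of that length 74 held it, or 0.221%, 15 of them at genes named Pcdhb. Clustered protocadherin promoters are known to share a conserved element that is bound by the insulator protein CTCF, but a match to these letters is a description of the sequence and says nothing on binding. Capitals mark the word in the following stretches (GRCr8, all on the + strand of chromosome 18), the first 6 from genes that fell and the last 2 from genes that did not pass.
Pcdhb8, chr18:29339243-29339302: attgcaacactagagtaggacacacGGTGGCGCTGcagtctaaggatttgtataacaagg
Pcdhb21, chr18:29492134-29492193: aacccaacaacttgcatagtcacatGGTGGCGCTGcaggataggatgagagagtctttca
Pcdhb3, chr18:29285589-29285648: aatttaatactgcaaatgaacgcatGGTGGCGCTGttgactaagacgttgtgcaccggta
Pcdhb19, chr18:29478749-29478808: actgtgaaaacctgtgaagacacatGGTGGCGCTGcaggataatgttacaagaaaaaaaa
Pcdhb9, chr18:29379233-29379292: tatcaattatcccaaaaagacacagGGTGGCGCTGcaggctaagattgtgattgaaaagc
Pcdhb5, chr18:29302389-29302448: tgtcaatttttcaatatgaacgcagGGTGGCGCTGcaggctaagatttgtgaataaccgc
Pcdhb10, chr18:29391763-29391822: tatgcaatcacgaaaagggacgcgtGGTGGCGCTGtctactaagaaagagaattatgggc
Pcdhb7, chr18:29328983-29329042: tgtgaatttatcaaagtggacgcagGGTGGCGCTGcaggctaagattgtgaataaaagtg

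Of the 14 beta genes with the word 11 fell, where 12 of all 20 measured beta genes and 17.4% of all tested genes fell. The word was picked as the most frequent in these same promoters, so most of the cluster carries it. Differences of the 14 ran from -0.99 to -0.31. The pair without the word, Pcdhb1 (-0.33, limma adjusted p 0.177) and Pcdhb15 (-0.28, limma adjusted p 0.386), was lower in EAE without passing. With 2 genes on that side no difference between genes with and without the word was tested.

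Pcdhb8 had the largest difference of the cluster. Its values were 4.76, 4.35, 5.06 and 4.78 in EAE cords, against 5.48, 5.76, 5.98 and 5.69 in control cords, so that it fell by 0.99 ± 0.16 (SE, 1.99-fold lower, limma adjusted p 0.00132) without overlap. Its 5 probe sets were all lower in EAE, with differences from -1.74 to -0.20. Pcdhb20 measured 4.83, 4.89, 5.15 and 4.86 in EAE cords and 5.61, 5.77, 5.85 and 5.53 in control cords, a difference of -0.76 ± 0.12 (limma adjusted p 0.000876). No EAE array reached a control array in it either, though with the median of its 5 probe sets the difference was -0.31 and did not pass (limma adjusted p 0.276). Pcdhb3 (4.46 ± 0.19 in EAE and 5.18 ± 0.17 in control cords, SD, n = 4 each) and Pcdhb21 (3.95 ± 0.23 in EAE and 4.68 ± 0.27 in control cords) both fell by 0.73, Pcdhb3 with its EAE mean at background and Pcdhb21 with both means there.

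The other 8 beta genes that fell were Pcdhb2, Pcdhb17, Pcdhb19, Pcdhb12, Pcdhb9, Pcdhb14, Pcdhb5 and Pcdhb4, with differences from -0.61 to -0.40. The groups did not overlap in them except in Pcdhb4, where control 195 lay under the highest EAE array. Pcdhb5 rested on 2 probe sets with its EAE mean at background, and with the 50th percentile filter it was not measured. Of the 3 measured probe sets of Pcdhb14, 1 passed the filter on the control arrays alone, and with the filter on the mean over all 8 arrays its difference was -0.40 and did not pass (limma adjusted p 0.081). Its call was also lost with the 50th percentile filter, with the median of its probe sets and without control 194, 195 or 196, that of Pcdhb4 with the median, with no variance moderation and with any 1 of 6 arrays left out, and that of Pcdhb17 with no variance moderation and without control 194, EAE 217 or EAE 241. With the median of the probe sets Pcdhb3 (limma adjusted p 0.052), Pcdhb9 (0.0793) and Pcdhb19 (0.177) did not pass either. Of the 8 beta genes that did not pass, Pcdhb6 came nearest to the threshold with a difference of -0.38 (95% interval -0.68 to -0.08, limma adjusted p 0.0551). Pcdhb11 had the widest spread, with EAE values from 3.95 to 5.03 and control values from 4.46 to 6.22. Pcdhb13, whose symbol is now a synonym of Pcdhb12, differed by -0.20 (-0.56 to 0.16).

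In the alpha cluster each gene supplies a first exon that is joined to exons common to the whole cluster. The current gene table holds the old alpha symbols as names of a single gene, Pcdha4. Pcdha3 averaged 6.04 ± 0.18 in EAE and 6.78 ± 0.19 in control cords (SD, n = 4 each) and fell by 0.74 ± 0.13 (SE, limma adjusted p 0.0022), and Pcdha12 averaged 5.22 ± 0.15 in EAE and 5.90 ± 0.23 in control cords and fell by 0.68 ± 0.13 (limma adjusted p 0.00378). Neither overlapped between the groups, and each rested on 2 probe sets. Pcdha10 rested on 1 probe set, at 4.83, 4.18, 4.86 and 4.71 in EAE cords and 4.81, 5.48, 6.04 and 5.95 in control cords. Its difference of -0.93 ± 0.27 passed (limma adjusted p 0.0242) although control 193 fell among the EAE arrays and the EAE mean lay at background. The call was lost without control 196, without EAE 218 with or without control 195, without EAE 241 and with no variance moderation, where the limma adjusted p ran from 0.0501 to 0.0984.

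A further 8 measured probe sets carried 15 alpha cluster symbols at once and therefore belonged to none of the genes above. All 8 were lower in EAE, with a median difference of -0.69, and 2 of them fell: number 5673292, at 7.56, 7.76, 7.74 and 7.47 in EAE and 8.10, 8.12, 9.09 and 8.48 in control cords (limma adjusted p 0.0337 over all probe sets), and number 6601806, at 3.78 ± 0.25 in EAE and 4.82 ± 0.69 in control cords (adjusted p 0.041). The first of these showed no overlap between the groups, and the second did. The annotation gives no positions, so that these probe sets lie in the common exons was not tested.

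The gamma cluster had values on both sides of 0. Its 13 measured genes had a median difference of -0.01, with 7 lower and 6 higher in EAE. Pcdhgb8 measured 5.92, 5.84, 5.91 and 5.91 in EAE cords and 6.43, 6.33, 6.21 and 6.36 in control cords and fell by 0.44 ± 0.09 (SE, limma adjusted p 0.00522), and Pcdhga2 averaged 4.95 ± 0.07 in EAE and 5.35 ± 0.20 in control cords and fell by 0.41 ± 0.12 (limma adjusted p 0.0252). In both the groups did not overlap. With the median of the probe sets neither passed (limma adjusted p 0.062 for Pcdhgb8 and 0.072 for Pcdhga2), and Pcdhga2 was also lost with the 50th percentile filter and without control 196, EAE 217 or EAE 241. Pcdhgc3, one of the C-type genes at the end of the cluster, measured 5.91, 5.97, 5.73 and 5.91 in EAE and 5.73, 4.79, 5.15 and 5.86 in control cords, a difference of 0.50 with a 95% interval from 0.01 to 0.98 (limma adjusted p 0.11). Of 3 probe sets annotated to 13 gamma symbols together, 1 was lower and 2 were higher in EAE, with differences of -0.14, 0.45 and 0.96, and none passed (limma adjusted p from 0.0804 to 0.706). Whether the clusters differ from each other was not tested.

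**Figure D3:**
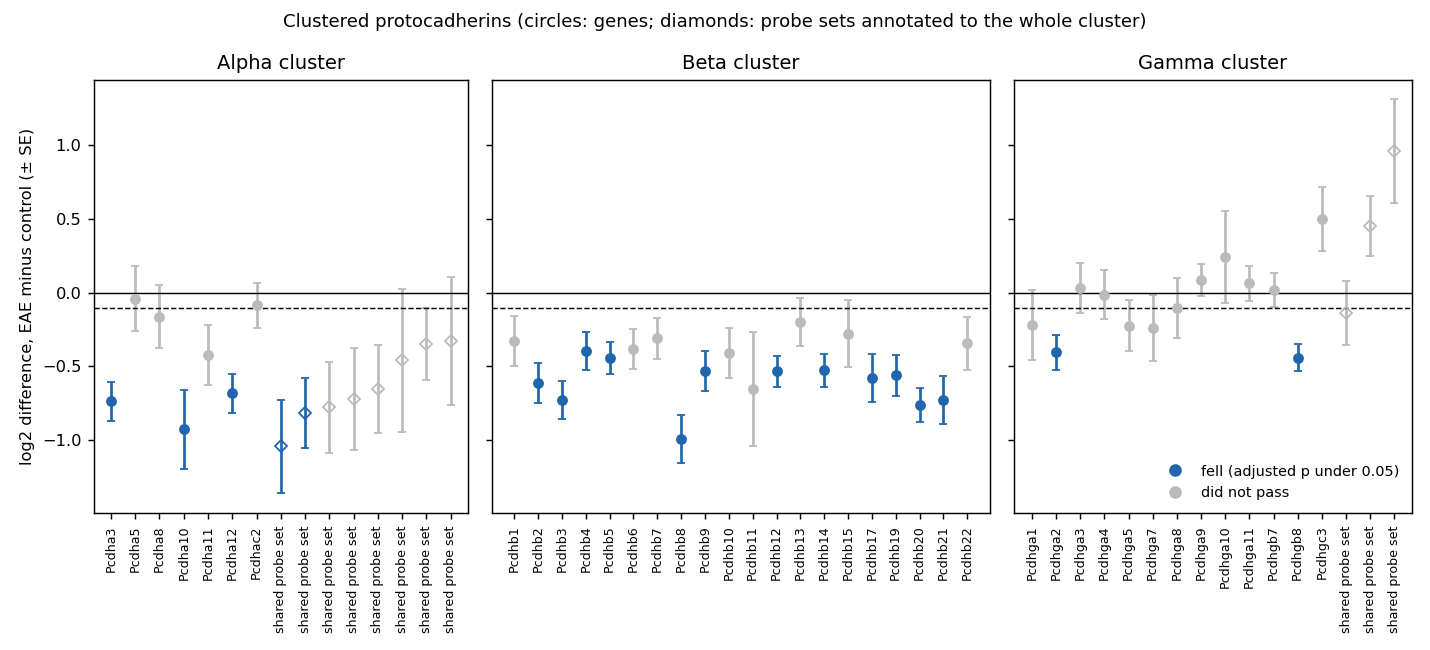
Log2 difference, EAE minus control, with its SE (y axis) for each measured gene of the alpha, beta and gamma clusters (circles) and for each probe set annotated to a whole cluster (open diamonds), blue where it fell and grey where it did not pass. The 20 beta genes and 8 shared alpha probe sets all lie below 0, whereas gamma genes and shared gamma probe sets lie on both sides of it.

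Outside the clusters, Pcdh8, a protocadherin that neuronal activity induces in the rat hippocampus, measured 4.97, 5.04, 4.90 and 4.76 in EAE cords and 5.33, 5.50, 5.66 and 5.44 in control cords. It fell by 0.56 ± 0.11 (SE, limma adjusted p 0.0037) with no overlap, and with the median of its 7 probe sets the difference was -0.43 (limma adjusted p 0.0894). Pcdh7 differed by -0.19 (95% interval -0.48 to 0.10) and the photoreceptor protocadherin Pcdh21, now named Cdhr1, by -0.02 (-0.24 to 0.20).

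The immunoglobulin-domain families beside the contactins gave 1 fall among 9 genes, where 17.4% of all tested genes fell. Ncam2, the second neural cell adhesion molecule, measured 9.11, 8.84, 9.29 and 9.25 in EAE cords, against 9.77, 9.71, 9.38 and 9.84 in control cords. It fell by 0.55 ± 0.14 (SE, limma adjusted p 0.0138), and control 195, its lowest control array, lay just above the highest EAE array. Ncam1, which carries polysialic acid in plastic tissue, had a higher mean, at 9.29 ± 0.26 in EAE and 9.09 ± 0.47 in control cords (SD, n = 4 each), with a 95% interval of the difference from -0.30 to 0.70. Of its 19 probe sets 4 were lower in EAE and none passed. The difference between the NCAM genes in their response was not tested.

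The L1 family, which ankyrins anchor in the axon membrane, had 3 measured genes with lower means. L1cam, a guide of axon growth, measured 6.34, 6.16, 6.51 and 6.42 in EAE and 7.07, 6.63, 6.37 and 7.01 in control cords, and its difference of -0.41 had a 95% interval from -0.78 to -0.04 and a limma adjusted p of 0.0853. Control 195 was the control array inside the EAE range, and without it the difference was -0.54 and passed (limma adjusted p 0.0134). Nrcam, which gathers sodium channels at the node, differed by -0.34 (-0.67 to -0.01, limma adjusted p 0.108) and Nfasc, which acts at node and paranode, by -0.25 (-0.61 to 0.11).

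The IgLON proteins, lipid-anchored molecules that shape neurite growth and synapse number, did not pass either. Negr1 measured 8.22, 7.92, 8.37 and 8.05 in EAE cords and 8.77, 8.53, 8.19 and 8.56 in control cords, a difference of -0.37 (95% interval -0.70 to -0.04, limma adjusted p 0.0821). Opcml differed by -0.23 (-0.58 to 0.13) and Lsamp by -0.06 (-0.45 to 0.33). Cadm1, which joins synaptic membranes and also links axons to glia, averaged 8.27 ± 0.17 in EAE and 8.17 ± 0.18 in control cords (SD, n = 4 each), with an interval of the difference from -0.18 to 0.39 (limma adjusted p 0.579).

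Neurexins and neuroligins face each other across the synapse. All 4 measured members had lower means in EAE and none passed in the main fit. Nrxn3 measured 7.80, 7.61, 7.96 and 7.92 in EAE and 8.47, 8.21, 7.70 and 8.23 in control cords, a difference of -0.33 (95% interval -0.69 to 0.04, limma adjusted p 0.162). Nrxn2 differed by -0.28 (-0.51 to -0.05, limma adjusted p 0.0625), and its EAE arrays, 5.64 to 5.79, all lay below its control arrays, 5.87 to 6.16. Nlgn3 differed by -0.32 (-0.77 to 0.13) and Nlgn2, the neuroligin of inhibitory synapses, by -0.23 (-0.55 to 0.09). Some of these genes fell under other settings. Nrxn2 and Nlgn2 passed with the 50th percentile filter. Nrxn2 also passed with quantile normalization, with centring on the median of the tested genes and with no variance moderation. Nrxn3 passed with array weights, and Nrxn3, Nlgn2 and Nlgn3 passed without control 195.

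The latrophilins are receptors with a large outer part that binds teneurins and neurexins, and the annotation lists them by the older symbols Lphn1, Lphn2 and Lphn3 in place of Adgrl1, Adgrl2 and Adgrl3. Lphn1 averaged 6.04 ± 0.09 in EAE and 6.45 ± 0.14 in control cords (SD, n = 4 each) and fell by 0.41 ± 0.11 (SE, limma adjusted p 0.0156) with no overlap, a call lost without EAE 241 (adjusted p 0.0529). Lphn3 measured 8.24, 7.84, 8.19 and 8.22 in EAE cords and 8.80, 8.68, 8.10 and 8.74 in control cords. Its difference of -0.46 (95% interval -0.83 to -0.08) did not pass (limma adjusted p 0.0662), and Lphn2 differed by -0.43 (-0.83 to -0.03, limma adjusted p 0.0951). Without control 195 both passed, with Lphn3 at -0.61 (limma adjusted p 0.00429).

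The study was designed to find differences in exon expression, so the probe sets of each gene were also set against each other. The 82 genes had 939 probe sets, 796 of them measured, and of these 187 fell and 7 rose with limma (23.5% and 0.879%), where 10.2% of all measured probe sets fell and 10.2% rose. The 7 that rose were 6 of Cdh17, among them the 2 that passed the filter on the EAE arrays alone, and 1 of Cdh23. Exon usage, tested as unequal change among the probe sets of a gene with limma's diffSplice, passed in 12 of the 55 adhesion genes with at least 3 measured probe sets, or 21.8%. Over all genes 26.6% passed, so the share among adhesion genes was not above that of the arrays as a whole. Of the 12 genes, 4 named here (Cdh17, Nlgn2, Pcdhb12 and Pcdhb20) passed as well when the variance was estimated separately for every probe set. With each of the 8 arrays left out in turn, Cdh17, Pcdhb20, Cntn6, Lsamp and Nrxn2 passed all 8 times. Nlgn2 passed 7 times, Cdh23 6 times and Pcdhb12 5 times (diffSplice adjusted p up to 0.141). Pcdhb19 passed 4 times, Cdh8 3 times, and L1cam and Pcdh8 2 times each.

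Unequal change among probe sets was not called in most of the genes with the largest falls. It did not pass in Cdh19 (diffSplice adjusted p 0.532), Cdh7 (0.202), Cdh6 (0.38), Cntn4 (0.866) or Cntn3 (0.7). In Cntn6, where it passed (adjusted p 0.00381), the probe set that departed was number 6190978, at background in both groups, with a difference of -0.12 against a median of -1.11 over the gene. In Cdh8 (diffSplice adjusted p 0.0275) number 6743041 fell by 1.94, to 4.61, 3.50, 4.33 and 4.39 in EAE cords, against 5.81, 5.87, 6.84 and 6.06 in control cords. In Pcdhb20 (diffSplice adjusted p 0.00386) number 6695669 fell by 1.47 while number 6025440, at background in both groups, differed by 0.05.

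In Lsamp, Nrxn2 and Nlgn2, which did not pass at the gene level, single probe sets departed from the rest. Lsamp (diffSplice adjusted p 0.00148) held number 5684896, at 7.36, 7.60, 7.25 and 7.45 in EAE cords and 8.29, 8.51, 8.78 and 8.84 in control cords, which fell by 1.19 ± 0.18 (SE, limma adjusted p 0.0014). Its number 6709452 went the other way, at 9.09, 8.69, 8.96 and 9.44 in EAE and 9.17, 8.14, 6.61 and 7.58 in control cords, a difference of 1.17 that did not pass (limma adjusted p 0.0931). The EAE arrays were apart from the controls in the first and overlapped with control 193 in the second. With separate variances for the probe sets Lsamp did not pass (limma adjusted p 0.0774).

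Nrxn2 (diffSplice adjusted p 0.000691) had 15 of its 23 probe sets lower in EAE. Its number 5929515 measured 5.40, 4.94, 5.19 and 5.51 in EAE cords and 6.66, 5.97, 7.34 and 7.31 in control cords and fell by 1.56 ± 0.30 (SE, limma adjusted p 0.0051), with no overlap. With separate variances the gene's limma adjusted p was 0.0564. In Nlgn2 (diffSplice adjusted p 0.00816) 5 of 6 probe sets were lower and number 6390661 was higher, at 5.18, 5.34, 5.49 and 5.52 in EAE and 4.83, 4.48, 3.39 and 5.22 in control cords (difference 0.91, limma adjusted p 0.0849). Control 196 overlapped with the EAE arrays in it.

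Pcdhb12 (diffSplice adjusted p 0.0182) held number 5965193, which fell by 1.89 ± 0.24 (SE) to 4.38 ± 0.39 in EAE cords, against 6.27 ± 0.30 in control cords (SD, n = 4 each). Its number 6218450 differed by 0.70, a value that rests on control 195, which was at 3.65 where the other control arrays had 7.07 to 7.74 and the EAE arrays 6.72 to 7.80. In Cdh17 (diffSplice adjusted p 3.83e-05) number 5858476 rose by 1.96, to a mean of 4.76 in EAE against 2.80 in control cords, while number 6333997 differed by -1.22 and did not pass (limma adjusted p 0.112). Number 5858476 passed the filter on the EAE arrays alone, so its rise is no support, and with the filter on the mean over all 8 arrays Cdh17 exon usage had a diffSplice adjusted p of 0.000898. The remaining genes past the threshold were Cdh23 (diffSplice adjusted p 0.00559), where number 6012331 fell by 0.99 and 25 of 36 probe sets were at background in both groups, and Pcdhb19 (0.017), L1cam (0.0262) and Pcdh8 (0.0285), in which no single probe set departed from the others past the threshold. The annotation used here gives no position within the gene for any probe set.

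**Figure D4:**
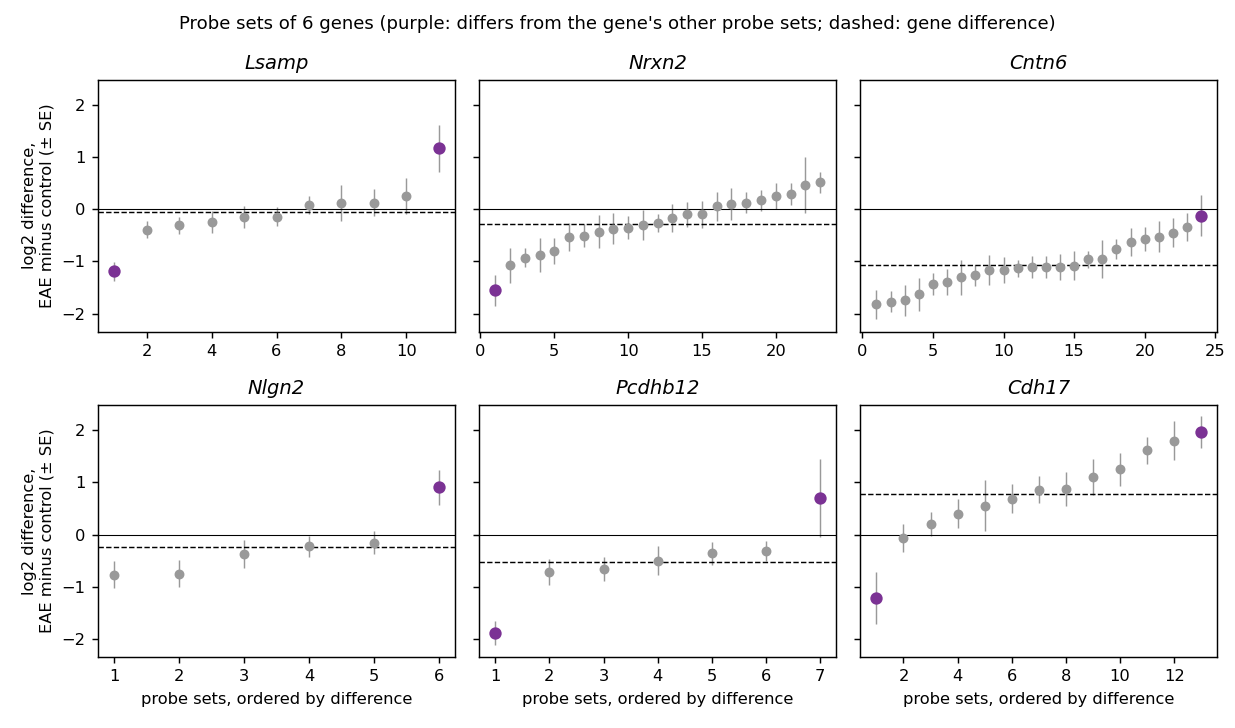
Log2 difference, EAE minus control, with its SE (y axis) for each measured probe set of Lsamp, Nrxn2, Cntn6, Nlgn2, Pcdhb12 and Cdh17, ordered by difference (x axis). Purple points differ from the other probe sets of the gene (limma diffSplice, adjusted p under 0.05), the dashed line is the gene's own difference, and in Cntn6 every point lies below 0.

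Genes whose proteins bind or cut these adhesion molecules were read from a list of 50 measured genes, of which 22 fell and 3 rose (limma). Over all tested genes 17.4% fell and 13.7% rose. Of the intracellular partners of cadherins 0 of 4 fell and 2 rose. Beta-catenin (Ctnnb1), which binds the cadherin tail, averaged 7.84 ± 0.07 in EAE and 6.78 ± 0.60 in control cords (SD, n = 4 each) and rose by 1.07 ± 0.25 (SE, limma adjusted p 0.00926). Alpha-catenin (Ctnna1), which links it to actin, averaged 7.12 ± 0.12 in EAE and 6.54 ± 0.21 in control cords and rose by 0.59 ± 0.13 (limma adjusted p 0.00611). Both genes kept the groups apart, and both proteins act in most cell types, which whole cord values do not separate.

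Of 14 partners at the node, paranode and juxtaparanode 10 fell and 0 rose with limma. Mag, which fell by 0.66, is counted here and again among the oligodendrocyte markers below. The largest differences were in the sodium channels of the node and axon initial segment, Scn1a (-1.06 ± 0.15, SE, limma adjusted p 0.000453), Scn2a1 (-0.85 ± 0.14, 0.00163) and Scn8a (-0.70 ± 0.18, 0.0165), each without overlap between the groups. Of 13 partners of neurexins and neuroligins 6 fell, among them the scaffold proteins Dlg3 (-0.47 ± 0.10, limma adjusted p 0.00512), Lin7b (-0.46 ± 0.12, 0.0145) and Shank1 (-0.39 ± 0.09, 0.0101). Of 16 other surface partners 6 fell, led by Fgfr2, a fibroblast growth factor receptor (-0.59 ± 0.18, limma adjusted p 0.0321, lost with any 1 of 6 arrays left out), the giant cadherin Fat3 (-0.56 ± 0.12, 0.00583) and the netrin receptor Unc5c (-0.52 ± 0.11, 0.0056). Of the 3 proteases that cut adhesion molecules, Adam17 rose by 0.57 ± 0.10 (limma adjusted p 0.00158), whereas the differences of Bace1 (-0.04) and Psen2 (0.24) did not pass. With the median of the probe sets Ctnna1 (limma adjusted p 0.0862), Lin7b (0.0839) and Unc5c (0.0619) did not pass, nor did Lin7b without EAE 217 (0.0506) or Scn8a with no variance moderation (0.0548).

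Marker genes of the cell types in the cord were read from the same fit, in which 17.4% of all tested genes fell and 13.7% rose. Of 14 neuron markers 8 fell and 0 rose with limma, and their mean per array ran from 8.23 to 8.55 in EAE cords and from 8.62 to 9.01 in control cords. Of 10 markers of mature oligodendrocytes 5 fell (8.40 to 8.70 in EAE and 8.74 to 9.18 in control cords), and of 4 markers of their precursors 2 fell (5.49 to 5.70 in EAE and 5.85 to 6.01 in control cords). The largest falls among these were in Ugt8 (-1.18), Gjb1 (-1.06) and Opalin (-0.95) of oligodendrocytes and in Gad2 (-0.89) of inhibitory neurons. Other markers of the same lists did not follow. Cldn11 of oligodendrocytes (0.33) and Tubb3 of neurons (0.04) had higher means in EAE and did not pass. Mog (-0.13) and Cnp (-0.20) of oligodendrocytes and Stmn2 of neurons (-0.04) were little lower and did not pass. Snap25, a synaptic marker, differed by -0.25 and did not pass (limma adjusted p 0.0763).

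Markers of immune cells moved the opposite way: all 6 of macrophages and microglia rose (mean per array 8.20 to 8.37 in EAE and 5.18 to 5.46 in control cords), as did all 5 of T cells (6.41 to 6.62 in EAE and 4.14 to 4.51 in control cords). Of 7 astrocyte markers 3 rose (9.56 to 10.05 in EAE and 9.18 to 10.05 in control cords), and 0 of 3 endothelial and 0 of 4 meningeal markers passed in limma. In the astrocyte list Gjb6 (-0.61), Slc1a2 (-0.51) and Aqp4 (-0.18) had lower means in EAE and did not pass. No marker of any list was at background in both groups. The part that a changed mix of cells has in the lower values of the adhesion genes was not tested.

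**Figure D5:**
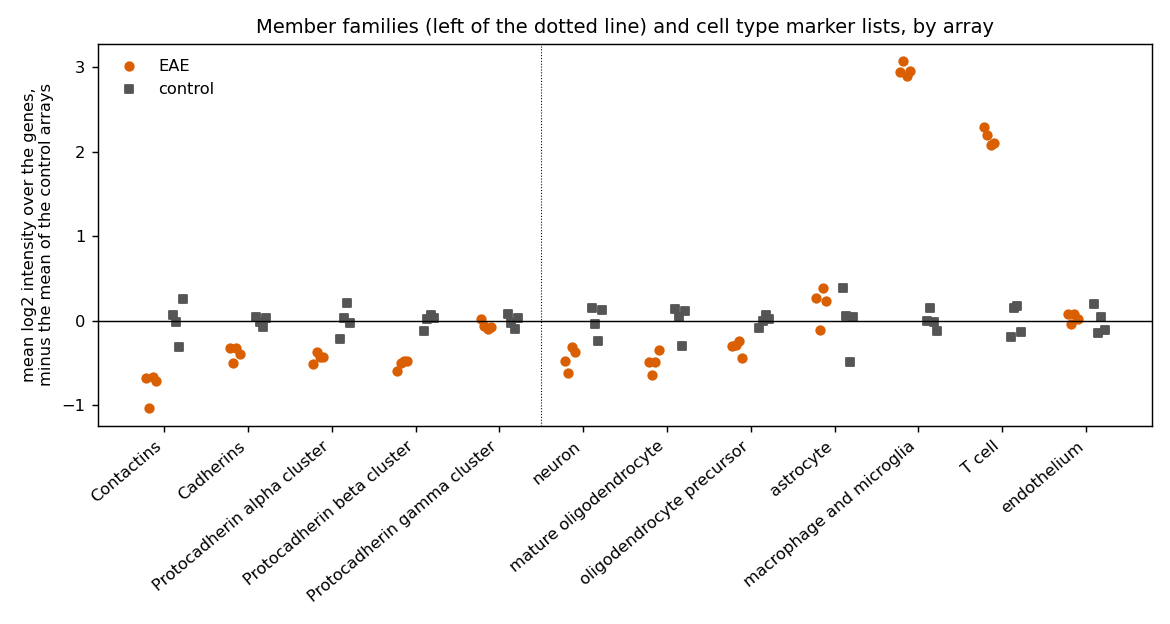
Mean log2 intensity per array of 5 adhesion gene families and 7 cell type marker lists, minus the mean of the control arrays (y axis), with EAE arrays as orange circles and control arrays as grey squares. Contactins, cadherins, alpha and beta protocadherins, neuron and oligodendrocyte lists lie lower on every EAE array than on any control array, gamma protocadherins, astrocyte and endothelial lists overlap, and the macrophage and T cell lists lie higher.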

How the data were processed

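The authors deposited log2 intensities of 80939 probe sets on 8 arrays. Per the submitters' processing notes, the tools were Partek, RMA and Affymetrix Expression Console, with no role or order stated. Versions and genome build are not given in the sources used here. Array annotation gave 76186 probe sets 1 gene symbol, 550 several and 4203 none, and 1 symbol was required. Of the 82 adhesion genes 68 symbols are current and 14 are older names.

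A probe set counted as measured where 4 or more arrays reached log2 3.98, the 25th percentile over the table, and 62176 did. A probe set could thus pass on 1 group alone: among those of the adhesion genes 2 did so on the control and 2 on the EAE arrays, and no gene rests only on such probe sets. EAE was set against control in gene means and in probe sets by lmFit and eBayes of limma 3.58.1 (R 4.3.3), 2-sided, with Benjamini-Hochberg adjustment over all genes or probe sets and a threshold of 0.05. Exon usage used limma's diffSplice F test. Intervals are 95% intervals from limma, errors of differences are SE and those of means SD. Labels name each rat but no litter or batch, so none could be a term. The p-values of genes and probe sets measure the spread between these 8 animals. The diffSplice test pools the spread over a gene's probe sets and treats probe sets of the same array as independent. Its p-values are therefore not a measure of the spread between animals alone.

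Named genes are the 10 largest falls and rises among adhesion genes past the threshold (fewer where fewer passed), the largest difference in each family, every gene past the exon usage threshold with its most deviating probe sets, those not measured and up to 3 partners per group. Others are named to account for every family, chosen after their values were seen. The adhesion genes and the lists of partners and markers were chosen with earlier results of these data known. Promoters are from RefSeq (GRCr8). Alternatives covered the filter, normalization, gene summary, variance model, array weights, exon usage test and arrays left out. The steps were tested on simulated data. Figures used matplotlib 3.10.9.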

Additional observations from a re-analysis of the deposited data

Results flagged for a closer look

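In 4 of 52 groups of 4 arrays examined, 1 array stood apart from the other 3 by more than Dixon's 95% limit for the gap over the range, where chance gives about 1 in 20. In Cntn6, EAE 218 was lowest of the EAE arrays (5.32, gap over range 0.902), and control 196 was highest of the control arrays (7.03, gap over range 0.885). In Lphn3, EAE 218 was lowest of the EAE arrays (7.84, gap over range 0.884), and control 195 was lowest of the control arrays (8.10, gap over range 0.835). Leaving out any single array kept the Cntn6 difference between -1.15 and -0.99, with the call kept, and put that of Lphn3 between -0.61 and -0.36.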

How the results depend on the processing

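Under the 10 other settings 22 (median of probe sets per gene) to 44 (array weights) adhesion genes fell, and 25 to 39 with 1 array left out. The number that rose was 0 with the 50th percentile filter or without control 195 and EAE 218, 2 with array weights and 0 to 2 with 1 array left out. All genes that fell numbered 792 (median) and 1873 (weights), and partners that fell 12 (median). Adhesion probe sets that rose numbered 0 (50th percentile), 4 (no variance moderation), 12 (weights), 2 (without control 195 and EAE 218) and 2 to 13 with 1 array left out, and those that fell 106 (without control 196) to 231. Exon usage passed in 6 genes with separate variances for the probe sets, in 6 to 22 with 1 array left out. The sign turned in Cdh23 (0.060, 50th percentile filter) and in Lsamp (-0.22 to 0.051 with 1 array left out, above 0 without control 193 or EAE 218), neither of which passed. The cause of these changes was not tested. Of the 32 adhesion genes that passed at the gene level, 17 passed in every setting that measured them, and of 12 named partners 7. Beta protocadherins that fell numbered 6 with the median. No paired analysis was possible because the rat numbers are not shared between the groups. Low signal over background limits the protocadherins most.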
